A study of Mus musculus with 9 samples.

Results

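Receptors for cytokines that T cells release were examined in LLC1 cells (Lewis lung carcinoma, a mouse lung cancer line) kept with T cells. The 10 genes, chosen by name, are Il17ra and Il17rc for interleukin 17 (IL-17), Il4ra and Il13ra1 for IL-4 and IL-13, Tnfrsf1a and Tnfrsf1b for tumour necrosis factor (TNF), Il1r1 for IL-1, Ifngr1 and Ifngr2 for interferon-gamma, and Il10rb, a chain shared by the receptors for IL-10, IL-22 and type III interferons. They are 10 of the 18816 genes in the table with Th9 and, without Tnfrsf1b, 9 of the 18511 in the table with Th17 (19305 genes in either). Every group was LLC1 cells in direct contact with T cell subsets generated in vitro for 24 h, in equal numbers (1 T cell per LLC1 cell). The subset was labelled Th0 (3 libraries), Th9 (3) or Th17 (3). The CD4+ cells were removed by sorting, and the total RNA left was sequenced. The labels give no strain, age or allele for the T cells, and the 3 groups hold no LLC1 cells kept alone, so each comparison is with LLC1 cells that also met T cells. The title names epithelial-mesenchymal transition in lung cancer cells as the question. For the receptors the question is whether these cells carried transcripts for the chains that bind T cell cytokines, and whether the levels differed from those with Th0.

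In brief, 8 of the 10 receptor genes stood at 75 or more normalized counts in every Th0 library, and Il13ra1 and Tnfrsf1b were at 7 or fewer where listed. With Th9, both interferon-gamma receptor chains rose, and kept their call under all 14 alternatives. Tnfrsf1a rose too, but its call was lost when any 1 of the Th9 libraries was left out. Tnfrsf1b and Il13ra1 were called higher too, but entered the test only through their Th9 values. With Th17, none of the 8 receptor genes tested passed the test. Il9r, the IL-9 receptor, was listed in the table with Th9 at 0 to 7 normalized counts and was not listed in the table with Th17.

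Cytokine receptors work as pairs or larger sets of chains. The interferon-gamma receptor joins a binding chain, Ifngr1, with a signalling chain, Ifngr2, and acts through the kinases Jak1 and Jak2. Il4ra pairs with the common gamma chain Il2rg on blood cells, or with Il13ra1 on most other cells, and signals through Stat6. Il17ra with Il17rc, Il1r1 with its accessory chain Il1rap, and both TNF receptors lead through adaptors to the factor NF-kB.

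Values are normalized counts, which are read counts divided by 1 factor per library and rounded. The 2 tables share the Th0 libraries but were normalized separately, so each comparison stays within its table and Th9 was not tested against Th17. A fold change is the group mean minus the Th0 mean of log2(value + 1), and limma tested every gene whose mean reached 10 in a table. A gene was called at a Benjamini-Hochberg adjusted p under 0.05 over all genes tested. Nothing in the labels says that replicates came from separate cultures. The p-values then describe only the spread between these samples, which may be technical. Depth was about 12718971 to 17504907 reads per library. Th0 replicate 1 stands apart, with 31.1% of its values on 2 mitochondrial ribosomal RNAs and Gm26917, against 14.9% to 21.8% in the other libraries. Vim, Krt8, Krt18 and Cd44, which the cancer line carries, were listed, while Epcam, Cdh1 and Nkx2-1, epithelial and lung genes, were not listed. The lung gene Sftpc was listed only in the table with Th9, at 0, 1 and 0 with Th0 and 6, 0 and 2 with Th9. Krt8 was called lower with Th9 (-0.97, limma adjusted p = 0.000316), and Vim, Krt18 and Cd44 had no call. Of 22 T cell markers, all were listed in the table with Th9, and their summed level was 213 to 315 with Th0 and 1798 to 2515 with Th9. In the table with Th17, 12 were listed and summed to 213 to 302 with Th0 and 175 to 215 with Th17. A single marker, Tcf7, held much of these sums, at 121, 112 and 121 with Th0 and 98, 122 and 125 with Th17. Similar sums therefore do not show similar levels of the low markers. With Th9 the ratio of means to Th0 was 3.32 for Tcf7 and 63.5 for Cd3g. The marker Cd247 shares 56.43% of its exon bases with Pou2f1 on the other strand, so its value is uncertain. Cd3g, which encodes CD3 gamma, was at 8, 5 and 2 with Th0 and 352, 346 and 254 with Th9, and Ptprc, the pan-leukocyte CD45, at 51, 25 and 6 against 551, 447 and 401. Cd4 was at 10, 8 and 18 against 23, 23 and 17. Cd3e was not listed in the table with Th17, where Cd3g was at 0, 1 and 0 with Th17. Of 12 markers of other leukocytes (myeloid, B, CD8 and NK cells), 7 were listed, and they summed to 71 to 153 with Th0 and 97 to 119 with Th9. Within that sum, and named after their values were seen, the myeloid gene Cd14 rose from 41, 37 and 26 to 67, 63 and 58 (limma adjusted p = 0.0135). The myeloid gene Lyz2 fell from 33, 15 and 11 to 0, 2 and 1 (limma adjusted p = 0.00163), having passed the filter only through Th0, and the B cell gene Ms4a1 was at 16, 10 and 7 against 3, 3 and 2. T cells carry several of the receptors described here. Of 18 T cell markers tested with Th9, 16 were called higher, and Cd4 (limma adjusted p = 0.114) and Cd5 (limma adjusted p = 0.797) were not. The 16 moved with every Th9 result given here, and their part in it was not tested. In bulk RNA, fewer cells of a type and less RNA per cell cannot be told apart.

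The start regions of the 3 receptor genes with the smallest adjusted p with Th9 are shown so that they can be inspected for shared elements. Ifngr1 and Ifngr2 both rose, and Tnfrsf1b was tested only because of its Th9 values. Each run is the 250 bases before the start, 5′ to 3′ on the gene's strand, from RefSeq (GRCm38.p6), at chr10:19591699-19591948 (plus strand) for Ifngr1, chr16:91546809-91547058 (plus) for Ifngr2 and chr4:145246871-145247120 (minus) for Tnfrsf1b. Capitals mark matches to the 4 motifs searched.
Ifngr1: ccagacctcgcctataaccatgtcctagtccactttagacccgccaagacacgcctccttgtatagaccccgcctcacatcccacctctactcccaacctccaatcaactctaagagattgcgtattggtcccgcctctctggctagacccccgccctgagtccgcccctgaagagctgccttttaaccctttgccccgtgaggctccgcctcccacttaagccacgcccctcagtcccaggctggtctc
Ifngr2: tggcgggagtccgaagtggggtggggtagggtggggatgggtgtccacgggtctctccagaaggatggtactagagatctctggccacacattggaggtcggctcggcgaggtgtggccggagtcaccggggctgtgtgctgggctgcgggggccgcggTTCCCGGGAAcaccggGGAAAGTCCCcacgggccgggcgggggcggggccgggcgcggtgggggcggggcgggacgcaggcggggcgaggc
Tnfrsf1b: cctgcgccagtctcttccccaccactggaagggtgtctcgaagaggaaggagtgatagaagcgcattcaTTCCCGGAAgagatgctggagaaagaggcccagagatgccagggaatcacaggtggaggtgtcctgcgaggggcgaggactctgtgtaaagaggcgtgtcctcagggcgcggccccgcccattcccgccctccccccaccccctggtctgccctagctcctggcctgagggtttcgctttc

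Motifs were searched on both strands of 300-base windows, 250 before and 50 after the start: NF-kB (by its consensus), GAS (TTCNNNGAA, an element that STAT factors bind), a STAT6 element (as GAS but with 1 more base between its ends) and AP-1 (TGANTCA). Of all 32851 windows, 8.5%, 8.3%, 7.0% and 7.8% held them. The window of Ifngr2 held an NF-kB match at -75 and a STAT6 match at -91, and that of Tnfrsf1b a GAS match at -181. The window of Ifngr1 held none of the 4. Windows were given for 8 of the 10 receptor genes, and among the rest Tnfrsf1a had a GAS match at -244, Il4ra an NF-kB match at +20 and the second listed start of Il1r1 an NF-kB match at -232. The RefSeq start of Tnfrsf1a lies 361 bases inside the gene's listed span, so its match at -244 is within that span. A match describes letters only, and binding was not measured.

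**Figure D1:**
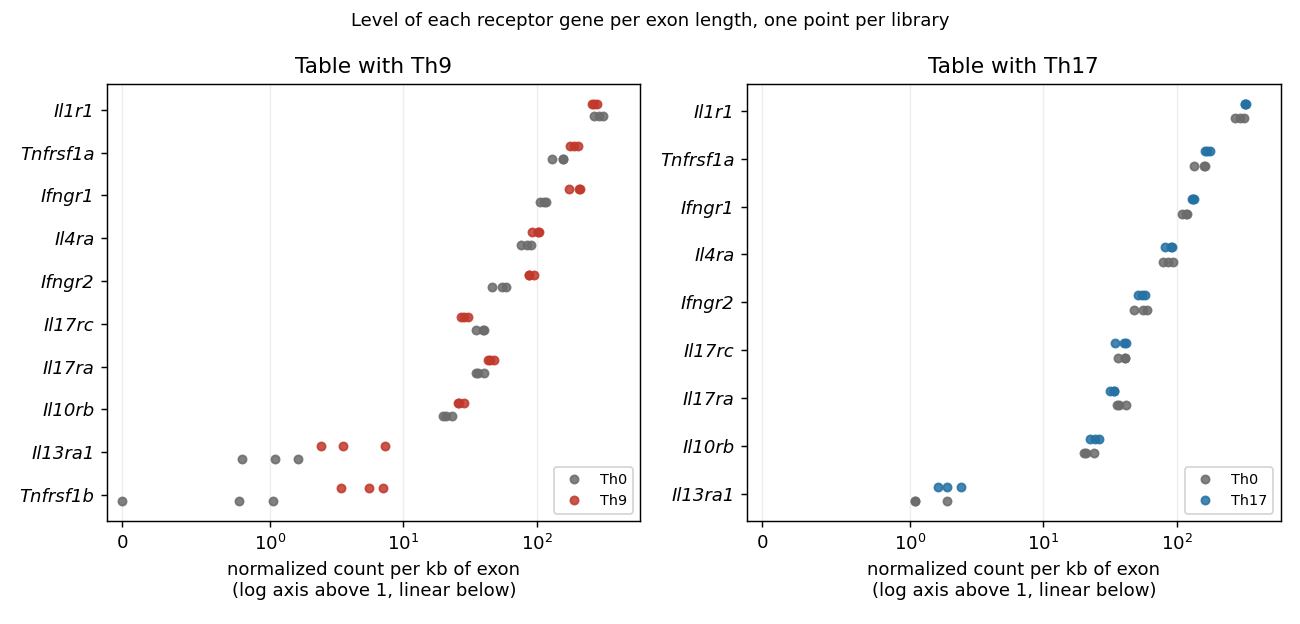
Normalized count per kb of exon for each receptor gene, one point per library, in the table with Th9 (left, Th0 grey and Th9 red) and the table with Th17 (right, Th0 grey and Th17 blue); the axis is logarithmic above 1 and linear below. Il1r1 is highest in every group, and Il13ra1 and Tnfrsf1b are lowest.

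Levels were compared between genes per kb of exon. With Th0 (table with Th9, n = 3), Il1r1 stood highest at 291 ± 22.8 (SD) normalized counts per kb, above 87.9% of 13685 protein-coding genes. Tnfrsf1a followed at 148 ± 15.8, then Ifngr1 at 112 ± 5.99, Il4ra at 83.9 ± 7.0 and Ifngr2 at 53.5 ± 6.37 per kb, the last near the middle of all genes (percentile 50.4). Il17rc at 38.3 ± 2.71 and Il17ra at 37.1 ± 2.95 per kb did not differ beyond their spread. Il10rb was at 21.2 ± 1.75 per kb. Il13ra1 (1.17 ± 0.41) and Tnfrsf1b (0.61 ± 0.55) lay at percentiles 6.7 and 3.9, overlapped each other, and stood far under the other 8.

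The order changed with Th9. Il1r1 stayed first at 272 ± 12.1 per kb, and Ifngr1 (197 ± 20.5) now overlapped Tnfrsf1a (191 ± 13.1). Ifngr2 (90.1 ± 4.06) reached the range of Il4ra (99.7 ± 7.09), while Il17ra (44.9 ± 2.32) stood above Il17rc (28.7 ± 1.88). Il17rc then overlapped Il10rb (26.7 ± 1.45), and Tnfrsf1b (5.33 ± 1.84) and Il13ra1 (4.4 ± 2.55) remained last at percentiles 17.2 and 15.6. With Th17 the order was that of Th0, from Il1r1 at 327 ± 2.32, Tnfrsf1a at 170 ± 7.15, Ifngr1 at 132 ± 1.96, Il4ra at 88.1 ± 5.35 and Ifngr2 at 54.5 ± 3.08 to Il17rc at 38.7 ± 3.75, Il17ra at 33.1 ± 1.35, Il10rb at 24.3 ± 1.97 and Il13ra1 at 1.98 ± 0.41 per kb.

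**Figure D2:**
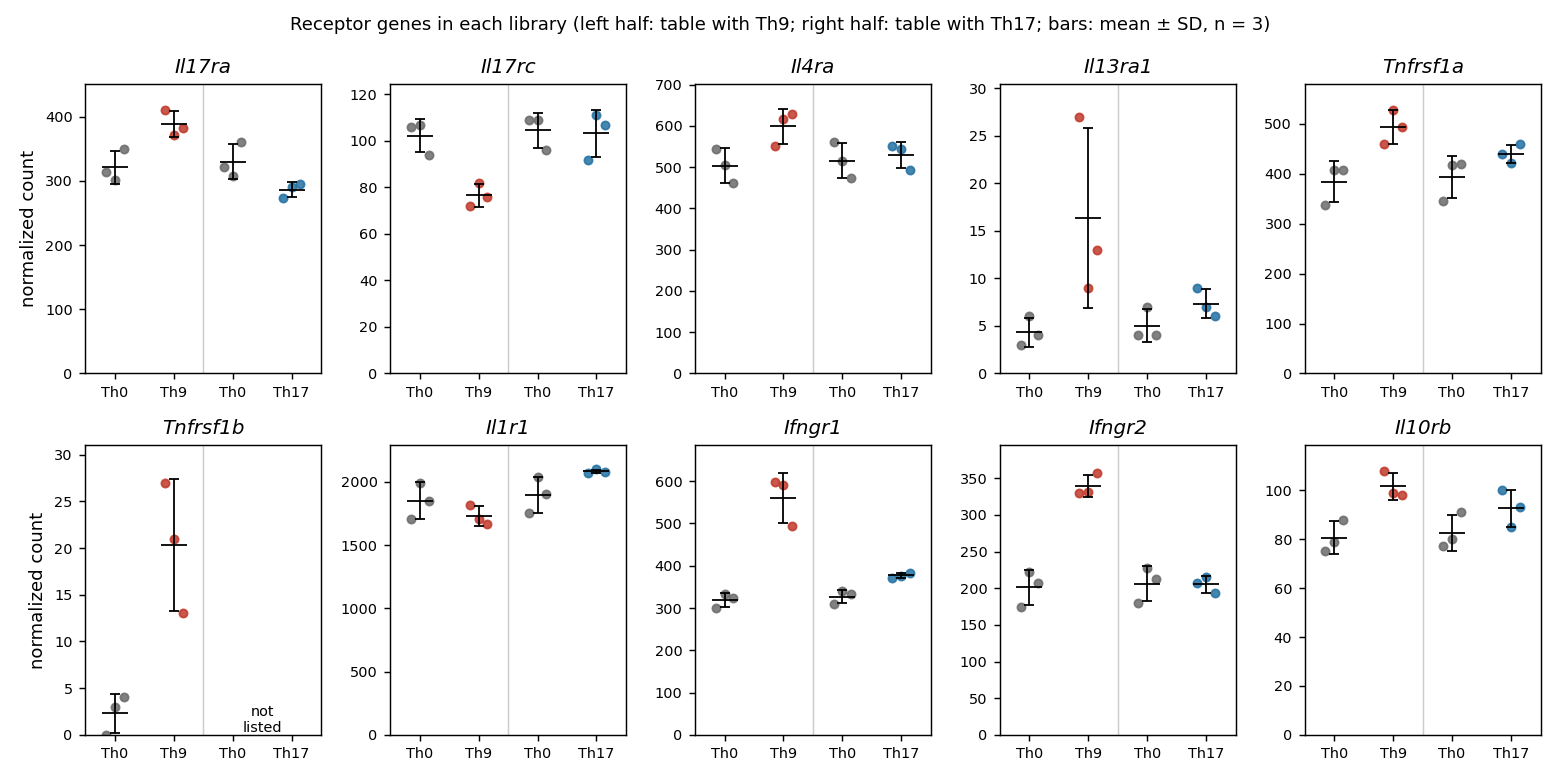
Normalized count of each receptor gene in each library, with Th0 and Th9 of one table on the left of each panel and Th0 and Th17 of the other on the right; points are libraries, bars mean ± SD (n = 3), and every axis starts at 0. The 3 Th9 libraries lie above all Th0 libraries for Ifngr1 (493 to 597 against 300 to 333) and Ifngr2 (330 to 357 against 175 to 222).

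Against Th0, 5 of the 10 receptor genes rose with Th9 and none fell, with a median log2 fold change of 0.35. Over all 14475 genes tested, 25.2% were called (13.4% higher and 11.9% lower) and the median was -0.01. Tnfrsf1b and Il13ra1 passed the filter on low values only through their Th9 libraries, so they had to differ and their calls add nothing to that count. The 10 genes were chosen with earlier results of these data known, which limits what the count can show. The count of 5 became 2 without Th9 replicate 1, 3 without Th9 replicate 2 or 3, 4 without Th0 replicate 3 and 7 without Th0 replicate 1. The balance over all genes depends on scaling: higher calls were 53% of all calls, and 73.9% when libraries were set to the same total, which moved the median of all genes from -0.01 to 0.10.

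The interferon-gamma receptor chains had the smallest adjusted p of the 10 genes, and both rose. Ifngr1 (chr10:19591949-19610229), the chain that binds the cytokine, was at 300, 333 and 324 normalized counts with Th0 and at 597, 591 and 493 with Th9. Every Th9 library stood above every Th0 library, and the log2 fold change was 0.81 (SE 0.10, 95% interval 0.58 to 1.03, limma adjusted p = 0.00015). Ifngr2 (chr16:91547072-91565169), the signalling chain, was at 175, 222 and 207 with Th0 and at 330, 331 and 357 with Th9. The groups did not overlap either, with 0.76 (SE 0.11, interval 0.51 to 1.01, limma adjusted p = 0.000506). Both genes kept their call under all 14 alternatives, with Ifngr1 at 0.76 to 0.92 and Ifngr2 at 0.66 to 0.86. Within each library, the level of Ifngr1 per kb was 2.27, 1.99 and 2.07 times that of Ifngr2 with Th0 and 2.39, 2.36 and 1.83 times with Th9, with overlapping groups (ratio of geometric means 1.03-fold, exact permutation test, two-sided, p = 0.8, n = 3 a group, smallest possible p = 0.1). These within-library ratios, 6 in all, were chosen after the values were seen.

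Ifng itself, the gene of the cytokine, was not listed in either table. Downstream, Jak1 was at -0.22, not past the threshold (limma adjusted p = 0.152). Jak2 rose by 0.35 (limma adjusted p = 0.0379). That call was lost without any 1 of the Th9 libraries (adjusted p of 0.107, 0.105 and 0.127 without replicates 1, 2 and 3, and 0.00676 to 0.127 over all alternatives). Jak1 was called lower with array weights (0.000929) and without Th0 replicate 1, at -0.34 (adjusted p = 0.000163, range over alternatives 0.000163 to 0.653).

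The TNF receptors differed in level. Tnfrsf1a (chr6:125349362-125362484), the receptor TNFR1 found on most cells, was at 337, 408 and 408 with Th0 and at 460, 528 and 493 with Th9. All Th9 libraries were higher, by a log2 fold change of 0.36 (SE 0.10, interval 0.14 to 0.59, limma adjusted p = 0.0241). The call did not hold without Th9 replicate 1 (0.0527), 2 (0.121) or 3 (0.0739), and its adjusted p ran from 0.00605 to 0.121 over the alternatives. Tnfrsf1b (chr4:145213463-145246870), the receptor TNFR2 known mainly from lymphocytes and other blood and vessel cells, was at 0, 3 and 4 with Th0 and at 27, 21 and 13 with Th9. The log2 fold change was 2.92 (SE 0.62, interval 1.57 to 4.26, limma adjusted p = 0.00477), and the scale of log2(value + 1) understates changes of such low genes. Without Th9 replicate 1 or 2 its mean was under 10 and it was not tested. Among the Th9 libraries Tnfrsf1b had the order of the T cell marker sum (2515, 2181 and 1798 in replicates 1, 2 and 3). Ifngr1, Il1r1 and Il10rb had that order too, and the other receptor genes, Ifngr2 among them, did not. An order of 3 libraries is weak evidence, and the part of T cell RNA was not tested. Tnf and Lta, the ligands, were listed at 0 in all Th0 libraries of the table with Th9, where the Th9 libraries had 1, 6 and 3 for Tnf and 7, 7 and 2 for Lta.

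For IL-4 and IL-13, the binding chain Il4ra (chr7:125552120-125579474) was at 545, 504 and 461 with Th0 and at 550, 617 and 629 with Th9. The lowest Th9 value, 550, was just above the highest with Th0, 545, and the change of 0.25 (interval 0.04 to 0.46) did not pass the test (limma adjusted p = 0.0764). It passed with the same total per library (0.0397), the same total without 3 RNA genes (0.0493), array weights (0.00231) and without Th0 replicate 1 (0.00907), over a range of 0.00231 to 0.253. An antisense gene, Gm44876, overlaps 9.51% of the exon bases of Il4ra, and the use of strand in counting is not given in the sources used here. Il13ra1 (chrX:36112110-36171259), its partner outside the blood, was at 3, 6 and 4 against 27, 9 and 13. The rise was 1.60 (SE 0.48, interval 0.56 to 2.65, limma adjusted p = 0.029) and was lost without Th0 replicate 3 (0.0696, range 0.00423 to 0.0696). Without Th9 replicate 1, which holds the highest value, or replicate 3, its mean fell under 10 and it was not tested.

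Il2rg, the partner of Il4ra on blood cells, was at 3, 3 and 1 with Th0 and at 33, 30 and 16 with Th9 (3.04, limma adjusted p = 0.000559). It passed the filter only through the Th9 libraries, which also held the higher T cell marker sums. Another gene on the same strand, Gm20489, shares 30.5% of its exon bases, so its value is uncertain. The decoy chain Il13ra2 was at 11, 8 and 4 against 18, 18 and 14, at 1.11 without passing the test (limma adjusted p = 0.0655). It too reached the filter on low values only through Th9, so calls under alternatives add no support. Such calls came without Th0 replicate 1 (0.0116), with the same total (0.0417) and with array weights (0.000804), over a range of 0.000804 to 0.209. Il4 was listed at 15 to 23 normalized counts in both groups (0.05, limma adjusted p = 0.919), and Il13 was not listed. The factor Stat6 fell by 0.35 on the log2 scale (limma adjusted p = 0.0276). That call was lost with the same total per library (0.266) and in every leave-one-out fit other than that without Th0 replicate 1 (0.0676 to 0.122).

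The chains of the IL-17 receptor had log2 fold changes of opposite sign, and neither passed the test. Il17ra (chr6:120463247-120487559), shared by several IL-17 family receptors, was at 313, 301 and 350 with Th0 and at 411, 372 and 383 with Th9 (0.28, interval 0.06 to 0.49, limma adjusted p = 0.0607). Il17rc (chr6:113471427-113483140), its partner for IL-17A and IL-17F, was at 106, 107 and 94 against 72, 82 and 76 (-0.41, interval -0.74 to -0.09, limma adjusted p = 0.0625). In both genes the groups did not overlap. Il17ra passed with a mean of at least 50 (0.0497), the same total (0.0453), the same total without 3 RNA genes (0.0287) and without Th0 replicate 1 (0.0453), over a range of 0.0287 to 0.237. Il17rc passed with array weights alone (0.0446, range 0.0446 to 0.205). The level of Il17ra per kb was 0.911, 0.867 and 1.15 times that of Il17rc with Th0 and 1.76, 1.399 and 1.55 times with Th9. The difference was 0.69 on the log2 scale, with no overlap between groups (exact permutation test, two-sided, p = 0.1, the smallest possible with n = 3 a group, 0.2 after adjustment over the 6 ratios).

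Il17rd, a related chain that can join Il17ra, fell by 0.67 on the log2 scale, from 433, 484 and 502 to 292, 313 and 287 (limma adjusted p = 0.000405). Traf3ip2, which encodes the adaptor Act1 that these receptors recruit, was at -0.16 (limma adjusted p = 0.334), and Traf6 at 0.28 (limma adjusted p = 0.118). Traf6 was called higher without Th0 replicate 1 (0.0161), with the same total (0.0434) and with array weights (0.000874), over a range of 0.000874 to 0.427. Il17a was not listed in either table, and Il17f was at 2 to 10 normalized counts in the table with Th9.

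Il1r1 (chr1:40225080-40317257), the signalling receptor for IL-1, was at 1703, 1993 and 1851 with Th0 and at 1815, 1706 and 1666 with Th9. The groups overlapped (-0.09, interval -0.28 to 0.09, limma adjusted p = 0.456), and the sign changed with the same total per library (0.01). Its partner Il1rap (chr16:26581704-26730117), the accessory chain without which Il1r1 does not signal, was at 199, 242 and 234 against 706, 738 and 708. That rise of 1.67 (SE 0.10, limma adjusted p = 4.85e-07) had the smallest adjusted p of all partner chains tested. Per kb, Il1rap stood at 0.065, 0.068 and 0.071 of the level of Il1r1 with Th0 and at 0.218, 0.242 and 0.238 with Th9. The ratio of geometric means was 3.42-fold, with no overlap (exact permutation test, two-sided, p = 0.1, the smallest possible with n = 3 a group, 0.2 after adjustment over the 6 ratios). An antisense gene overlaps 4.86% of the exon bases of Il1rap and no source used here says if reads were counted by strand.

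**Figure D3:**
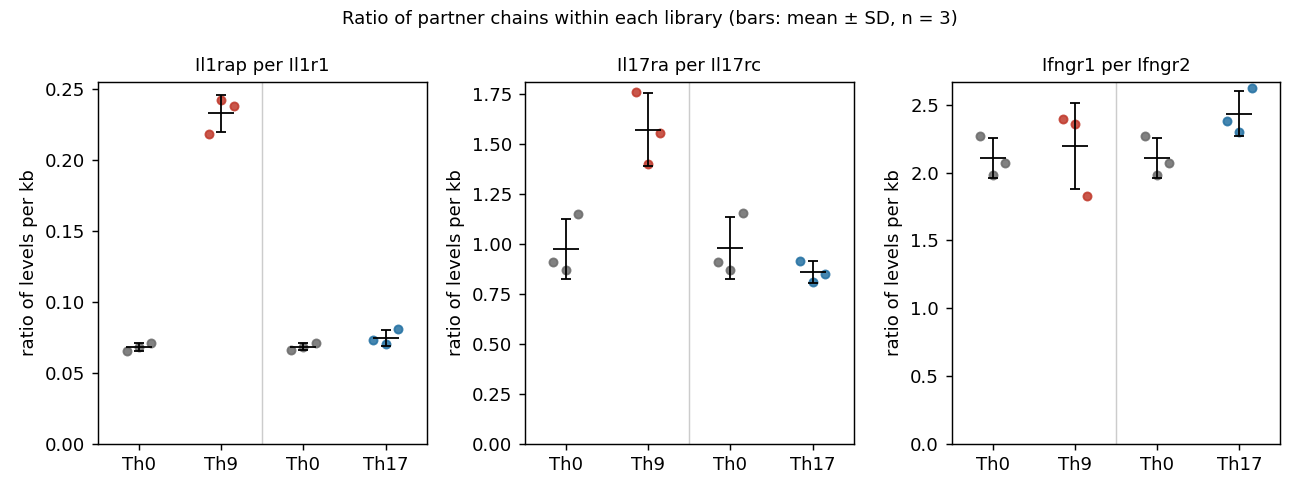
Level per kb of one chain divided by that of its partner within each library, for Il1rap per Il1r1, Il17ra per Il17rc and Ifngr1 per Ifngr2; points are libraries, bars mean ± SD (n = 3), axes start at 0. With Th9 the first ratio is 0.218 to 0.242 against 0.065 to 0.071 with Th0, and the third overlaps between the groups.

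Il1rl1, the IL-33 receptor ST2 that also uses Il1rap, rose from 251, 285 and 265 to 657, 582 and 568 (1.17, limma adjusted p = 7.25e-06). The decoy receptor Il1r2 was listed at 1, 5 and 2 with Th0 and 4, 11 and 6 with Th9 and was not tested. Il1a, Il1b and the antagonist gene Il1rn were not listed.

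Il10rb (chr16:91406164-91425834) was at 75, 79 and 88 with Th0 and at 108, 99 and 98 with Th9, without overlap (0.33, interval 0.01 to 0.65, limma adjusted p = 0.123). A second gene on the same strand, Gm21970, shares 14.9% of its exon bases, so its value is uncertain. Il10ra, the binding chain for IL-10, was at 1, 0 and 1 with Th0 and at 16, 6 and 5 with Th9, and its mean was too low for the test. With no filter on low values Il10ra was called higher (2.49, SE 0.60, limma adjusted p = 0.00959), on values of at most 16. Il22ra1 and Ifnlr1, which pair with Il10rb for IL-22 and type III interferons, were not listed in either table.

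Il9r was at 3, 0 and 0 normalized counts with Th0 and at 7, 4 and 7 with Th9, all under the filter, and Il9 was not listed. With no filter on low values Il9r was called higher (2.11, SE 0.66, limma adjusted p = 0.0363), on values of at most 7. Il21r, another receptor of lymphocytes, was at 3, 4 and 2 against 54, 33 and 34 (3.36, limma adjusted p = 6.06e-05), and it too passed the filter only through Th9.

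**Figure D4:**
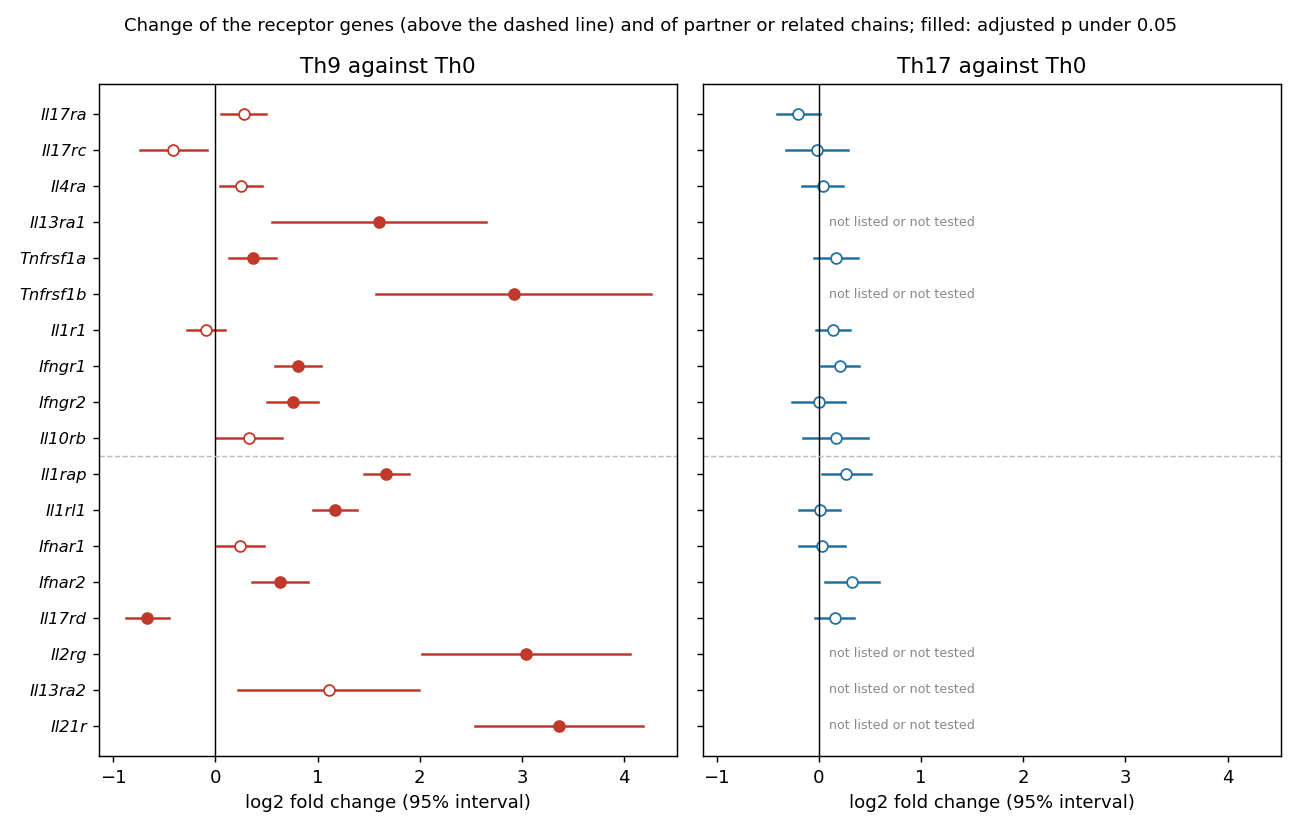
Log2 fold change (point) with its 95% interval (line) for the 10 receptor genes, above the dashed line, and 8 partner or related chains, for Th9 against Th0 (left) and Th17 against Th0 (right); filled points have an adjusted p under 0.05. In Th9, Ifngr1 (0.81) and Ifngr2 (0.76) are filled with narrow intervals, Tnfrsf1b (2.92) and Il13ra1 (1.60) with wide ones, and in Th17 no point is filled.

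In the comparison of Th17 with Th0, limma called none of the 8 receptor genes tested, and 1 had an unadjusted p under 0.05. Their median log2 fold change was 0.09. Of all 14342 genes tested 1.58% were called (1.19% higher and 0.39% lower), 2623 (18.3%) had an unadjusted p under 0.05, and the median was -0.005. The share of higher calls was 75.2% and moved to 85.6% with the same total, 46.8% with array weights and 41.4% without Th0 replicate 1.

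Ifngr1 was at 309, 340 and 332 with Th0 and at 372, 376 and 383 with Th17. Every Th17 library was above every Th0 library, but the change of 0.21 (interval 0.02 to 0.39) did not pass (limma adjusted p = 0.234). Ifngr2 was at 180, 227 and 212 against 207, 216 and 193, with overlapping groups and an interval of -0.26 to 0.25. The upper bounds of both intervals lie under the changes measured with Th9 (0.81 and 0.76). The difference between Th9 and Th17 was not tested, since the comparisons share their Th0 libraries and come from separately normalized tables.

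Il17ra was at 322, 307 and 360 with Th0 and at 273, 291 and 295 with Th17, all lower (-0.20, interval -0.41 to 0.01, limma adjusted p = 0.301). With array weights it was called lower (-0.26, adjusted p = 0.0281). Il17rc was at 109, 109 and 96 against 92, 111 and 107, with overlap (-0.02, limma adjusted p = 0.958). Per kb the ratio of Il17ra to Il17rc was 0.915, 0.808 and 0.85 with Th17, against 0.911, 0.868 and 1.16 with Th0 (exact permutation test, two-sided, p = 0.3, n = 3 a group).

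Tnfrsf1a was at 346, 417 and 419 with Th0 and at 439, 422 and 459 with Th17, a narrow gap that did not pass (0.16, interval -0.05 to 0.38, limma adjusted p = 0.412). Tnfrsf1b was not listed there, as a gene with few reads in all 6 libraries would be. Il4ra was at 560, 515 and 473 against 550, 545 and 492, with overlap (0.04, interval -0.16 to 0.24, limma adjusted p = 0.872). Il13ra1 was at 4, 7 and 4 against 9, 7 and 6, under the filter.

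Il1r1 was at 1751, 2036 and 1900 with Th0 and at 2072, 2098 and 2073 with Th17 (0.14, interval -0.03 to 0.31, limma adjusted p = 0.387). The Th17 values were all higher, and varied less among themselves. Il1rap was at 205, 247 and 240 against 269, 264 and 301 (0.27, limma adjusted p = 0.223). Il10rb was at 77, 80 and 91 against 100, 85 and 93, with overlap (0.16, limma adjusted p = 0.607). Il2rg, Il10ra and Il21r were not listed with Th17.

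Of the 22 partner, related and decoy chains on the list, 15 were tested with Th9, of which 8 rose and 3 fell (median 0.63), and 10 with Th17, of which none passed. Over all genes 13.4% were called higher and 11.9% lower with Th9, and 1.58% were called with Th17. Il2rg, Il21r, Il18r1 and Fas, among the 8, passed the filter only through Th9 and had to differ, so neither the count nor the median is read as a result. The list was chosen with earlier results of these data known. Beside the chains above, Ifnar2, the binding chain for type I interferons, rose by 0.63, from 233, 294 and 211 to 406, 370 and 360 (limma adjusted p = 0.0034), and shares 9.46% of its exon bases with Gm21970 on the same strand. Its partner Ifnar1 was at 0.24 with overlapping groups (limma adjusted p = 0.115), and passed without Th0 replicate 2 (0.0325) and with array weights (0.00223), over a range of 0.00223 to 0.391. Chosen after their values were seen, Il18r1 and Fas, at 4 to 7 and 3 to 5 with Th0, were at 14 to 23 and 14 to 19 with Th9, through which alone they passed the filter. Tgfbr1 rose by 0.31, from 343, 349 and 375 to 453, 419 and 449 (limma adjusted p = 0.0278). Tgfbr2, the other chain of the TGF-beta receptor, fell by 0.68 on the log2 scale, from 1196, 1472 and 1494 to 796, 895 and 903 (limma adjusted p = 0.000462). Neither call was followed under the alternatives.

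Ifngr2 and Il10rb lie in a cluster of receptor genes on chromosome 16 that is 192.4 kb long and holds, all on the plus strand and in this order, Ifnar2, Il10rb, Ifnar1 and Ifngr2. With Th9 the log2 fold changes along it were 0.63, 0.33, 0.24 and 0.76, of which the first and last passed the test. With Th17 they were 0.32, 0.16, 0.03 and -0.0018, none of which passed, and Ifnar2 alone of the 4 passed with array weights (0.00461). On chromosome 1, a 426.8 kb stretch holds the receptor genes Il1r2, Il1r1, Il1rl2, Il1rl1 and Il18r1. It also holds Gm38070, within the span of Il1r1 on the same strand, which was called lower with Th9 (-1.22, limma adjusted p = 0.02). There Il1r1 was at -0.09 with Th9 and Il1rl1, which starts 355.5 kb from the start of Il1r2, at 1.17.

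**Figure D5:**
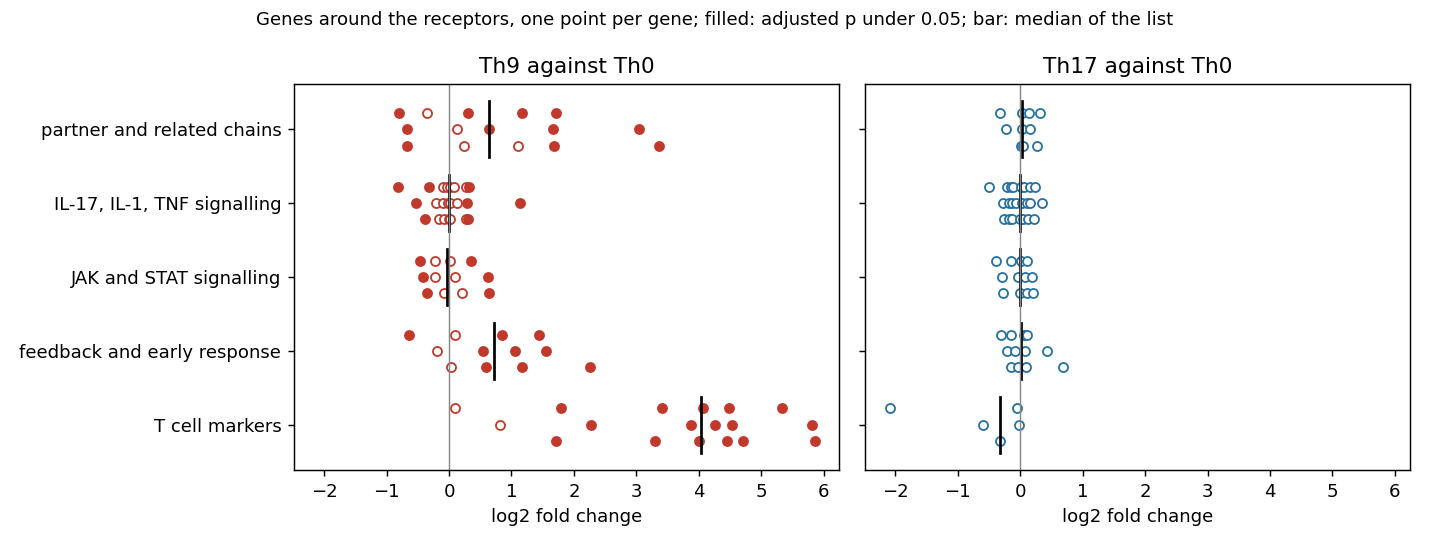
Log2 fold change of each tested gene in 5 lists around the receptors, for Th9 against Th0 (left) and Th17 against Th0 (right); filled points have an adjusted p under 0.05 and the bar is the median of the list. With Th9 the feedback list (median 0.72) and the T cell markers (median 4.03) lie to the right. Both signalling lists are centred near 0, and with Th17 no point is filled. Most T cell markers tested with Th9, Cd3e and Cd3g among them, passed the filter on low values only through Th9 and had to differ. The medians of these markers and of the feedback list are not read as results.

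Among 23 adaptors and kinases that the IL-17, IL-1 and TNF receptors use, 4 rose and 4 fell with Th9, and the median was 0 (25.2% of all genes were called, 13.4% higher and 11.9% lower). Birc3, a ubiquitin ligase of TNF receptor signalling, rose by 1.14 from 25, 28 and 28 to 64, 61 and 57 (limma adjusted p = 0.00143). Traf5, a TNF receptor associated factor, fell by 0.82, from 358, 341 and 356 to 232, 189 and 178 (limma adjusted p = 0.000335). Traf3 rose by 0.32 (limma adjusted p = 0.0166) and Tab1 fell by 0.39 (limma adjusted p = 0.0124). The call of Traf3 was lost without Th9 replicate 1 (0.0671) or 3 (0.0777), and that of Tab1 with the same total per library (0.126) and without Th0 replicate 3 or Th9 replicate 1 or 2 (0.0512 to 0.0772). Tradd, the adaptor of Tnfrsf1a, was at 0.01 (limma adjusted p = 0.971).

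Of 12 kinases, STATs and receptor substrates, 3 rose and 3 fell with Th9 (median -0.03), beside the same 25.2% of all genes called. Stat3 rose by 0.64, from 517, 550 and 535 to 917, 798 and 795 (limma adjusted p = 0.00026). The substrates of the IL-4 receptor, Irs1 and Irs2, fell by 0.47 (limma adjusted p = 0.00159) and 0.42 (limma adjusted p = 0.00587). A gene on the other strand, Gm9747, overlaps 30.9% of the exon bases of Irs1. The call of Irs2 was lost with the same total per library (0.113). Jak3, the kinase of Il2rg, rose by 0.62 (limma adjusted p = 0.0232), a call that 4 of the 6 leave-one-out fits lost, those without Th0 replicates 2 and 3 and without Th9 replicates 1 and 2 (adjusted p of 0.0569 to 0.11).

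Of 12 tested feedback inhibitors and early response genes of these receptors, 8 rose and 1 fell with Th9 (median 0.72), where 13.4% of all genes were called higher and 11.9% lower, with a median of -0.01. Like the signalling lists above, this list was chosen with earlier results of these data known. Neither its count nor its median is therefore read as a result. Nfkbia, the NF-kB inhibitor that NF-kB itself induces, went from 322, 324 and 321 to 1720, 1565 and 1349 (2.25, limma adjusted p = 3.2e-08). Tnfaip3, the enzyme A20 that limits TNF and IL-1 signalling, rose by 1.45 (limma adjusted p = 8.52e-06). Nfkbiz, a co-factor needed for many IL-17 and IL-1 target genes, rose by 1.05 (limma adjusted p = 1.87e-05). Socs2, an inhibitor of JAK and STAT signalling, rose by 1.55 (limma adjusted p = 0.000116). With Th17, none of the 57 tested genes of the partner, signalling and feedback lists was called by limma, against 11 at an unadjusted p under 0.05. Over all genes 1.58% were called and 18.3% had an unadjusted p under 0.05, so the 11 are near the background. Without Th0 replicate 1, 8 genes of these lists were called, among them Stat6 at -0.41 (adjusted p = 0.000818) and Traf6 at 0.43 (adjusted p = 0.0148). Over all genes, fits with 1 library left out called up to 2352, against 226 with all libraries. The 8 are therefore not read as a result about these lists.

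The genes most like Ifngr1, the receptor gene of smallest adjusted p in both comparisons, were found by Pearson's r of log2(value + 1) over the 6 libraries of a table, a description over few points that share groups and depth. In the table with Th9, where 10635 genes had a mean of 50 or more, these were Cebpb (r = 0.9996), Usp39 (r = 0.9993) and Clic4 (r = 0.9984), and 599 genes had an r of at least 0.95. Cebpb was at 229, 255 and 245 with Th0 and at 491, 498 and 399 with Th9. In the table with Th17 they were AI506816 (r = 0.998), Fscn1 (r = 0.9977) and Itga6 (r = 0.9974), with 260 of 10637 genes at 0.95 or above.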

How the data were processed

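Total RNA of LLC1 cells was sequenced in 9 libraries with a stranded kit, per the labels' protocols. The submitters' processing notes list, without roles, the tools STAR 2.4.0a, featureCounts 1.4.5-p1 and DESeq2 1.62, and the builds mm10 and GRCm38. The authors deposited whole-number scores, read counts divided by a size factor per library and rounded, in 2 separately normalized tables (0 sample columns left unused). Approximate depth is the value times a size factor recovered from its steps. Exon lengths are GENCODE M21.

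limma-trend (limma 3.58.1, R 4.3.3) was run on log2(value + 1) with group as the only term, where a gene's mean was 10 or more, and the script was tested on simulated data. Count tests were not used on rounded normalized values. The 14 alternatives per comparison changed the pseudocount (5), the filter (none, or 50), the scaling, the weights or the replicate block, or left out 1 library.

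The 10 receptors and all lists were chosen with earlier results of these data known. Named beside the receptors were up to 4 called genes of smallest adjusted p per list, fixed partner, kinase, adaptor and T cell genes, and the 3 genes most like the receptor of smallest p.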

Additional observations from a re-analysis of the deposited data

How the results depend on the processing

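Of 788 values of single genes under alternatives, 736 kept their side of the threshold and, where called, their direction, 24 lost the call, 28 gained one and 0 reversed a called direction. With 1 library left out, receptor genes called with Th9 numbered 2 to 7 (5 with all), partner and signalling genes 21 to 37 (34) and all genes 1853 to 5336 (3653). With fewer libraries, 8 or 9 receptor genes were tested without a Th9 library. With Th17 the same ranges were 0 to 8 for partner and signalling genes (0 with all) and 16 to 2352 for all genes (226). Array weights called 6628 genes with Th9 and 3361 with Th17, where 1 receptor gene and 13 partner and signalling genes were then called. The same total per library gave 139 calls with Th17, and 447 without the 3 RNA genes. For these changes the cause was not tested. The weight of Th0 replicate 1 was 0.22 and 0.19. Whether replicate numbers pair the samples stayed unclear. Same-numbered deviations correlated at 0.199, -0.016 and 0.241 with Th9 and at -0.062, -0.125 and 0.049 with Th17. The highest correlation with another number was 0.077, 0.105 and -0.102 with Th9 and 0.117, 0.095 and -0.007 with Th17. All are weak, but in Th9 replicates 1 and 3 and Th17 replicate 3 the same number was higher. A replicate block gave 4076 and 262 calls over all genes, and 5 and 0 receptor genes. Depth limits Tnfrsf1b, Il13ra1, Il9r and Il10ra, whose libraries hold at most 27 normalized counts.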
